A study of Mus musculus with 6 samples.

Results

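Integrins, selectins and immunoglobulin-type adhesion molecules were followed as 35 genes chosen by name: 15 integrin alpha chains, 8 integrin beta chains and 12 other surface molecules, out of 53735 genes in the table. All 35 were found by symbol, and the rule that lists them uses no expression value. RNA sequencing compared leukemia stem cells taken from liver (3 libraries) with leukemia stem cells taken from bone marrow (3 libraries). All 6 libraries came from C57 mice labelled male, 13 days after leukemia cells had been transplanted and with no treatment. Leukemia stem cells are those cells of a leukemia from which the disease can start again. Which driver genes the leukemia carried, which surface markers served for isolation and how many animals were used is not stated in the labels. The 3 libraries of a tissue are called technical replicates in the labels, yet sex-linked RNA differed between libraries of the same tissue, as given below. The p-values measure only the spread among the 3 libraries of a tissue. How much of that spread lies between animals cannot be told from the labels, but libraries that differ in sex-linked RNA are not repeats of the same sample.

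An integrin is a pair of 1 alpha and 1 beta chain that spans the cell membrane and grips matrix proteins or proteins on other cells. The alpha chain largely sets what is bound, and the pair has to be switched on from inside the cell before it holds firmly. Selectins are lectins that catch flowing blood cells by sugars on ligands such as PSGL-1, and immunoglobulin-type molecules such as ICAM-1, VCAM-1 and PECAM-1 serve as counter-receptors or bind their own kind. In bone marrow, integrins of leukocytes and VCAM-1 or fibronectin of the niche help to hold stem cells in place.

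Depth was 9731597 to 13819061 reads in liver libraries and 15404687 to 18478084 reads in bone marrow libraries. Values are normalized counts, meaning reads divided by 1 size factor per library, so a single read counts for 0.988 to 1.42 in liver and for 0.744 to 0.898 in bone marrow. Of 10 stem and progenitor markers, including Kit, Cd34 and Hoxa9, all were measured well enough to be tested, 0 passed the limma test described below, 4 had an unadjusted p under 0.05 (15.7% of all genes), and edgeR called 0 and DESeq2 called 1 (4.46% of all genes). Their summed level was 13087 to 13479 in liver and 14503 to 15513 in bone marrow, without overlap. Fold changes of liver over bone marrow were positive in 3 and negative in 7 (median log2 fold change -0.17). Among 10 hepatocyte markers 7 had no read in any library, including Alb, and among 11 macrophage and Kupffer cell markers 3 had none, including Clec4f and Vsig4. Libraries numbered 1 stood apart from those numbered 2 in both tissues. Xist, the RNA of the inactive X chromosome, showed 6229, 1.42 and 2425 normalized counts in liver, against 4860, 4.28 and 2486 in bone marrow. RNA of Y-linked genes, added up per library, reached 0, 2675 and 1634 normalized counts in liver, against 145, 2987 and 1553 in bone marrow. In each tissue replicate 1 thus had the most Xist and the least Y-linked RNA, and replicate 2 the reverse. Replicate 3 held both at levels in between. Yet every library is labelled male, and the origin of these levels was not tested.

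Transcripts of 14 of 15 integrin alpha chains and 6 of 8 beta chains were measured well enough to be tested, at very unequal levels. None of the 35 genes was without reads altogether, but 4 stayed under a mean of 10 normalized counts over the 6 libraries and were not tested. Itgb8, a chain that pairs with alpha v, had no read in liver and 1 in bone marrow. Itga3, a laminin receptor chain, had 2 reads in liver and 2 in bone marrow. Itgb5, another partner of alpha v, had 32 reads in liver and 22 in bone marrow, and Esam, an adhesion molecule of endothelial cells and platelets, had 21 in liver and 27 in bone marrow. Of the 31 genes tested, 13 had a mean of at least 1000 normalized counts, 8 lay between 100 and 1000, and 10 lay between 10 and 100.

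**Figure D1:**
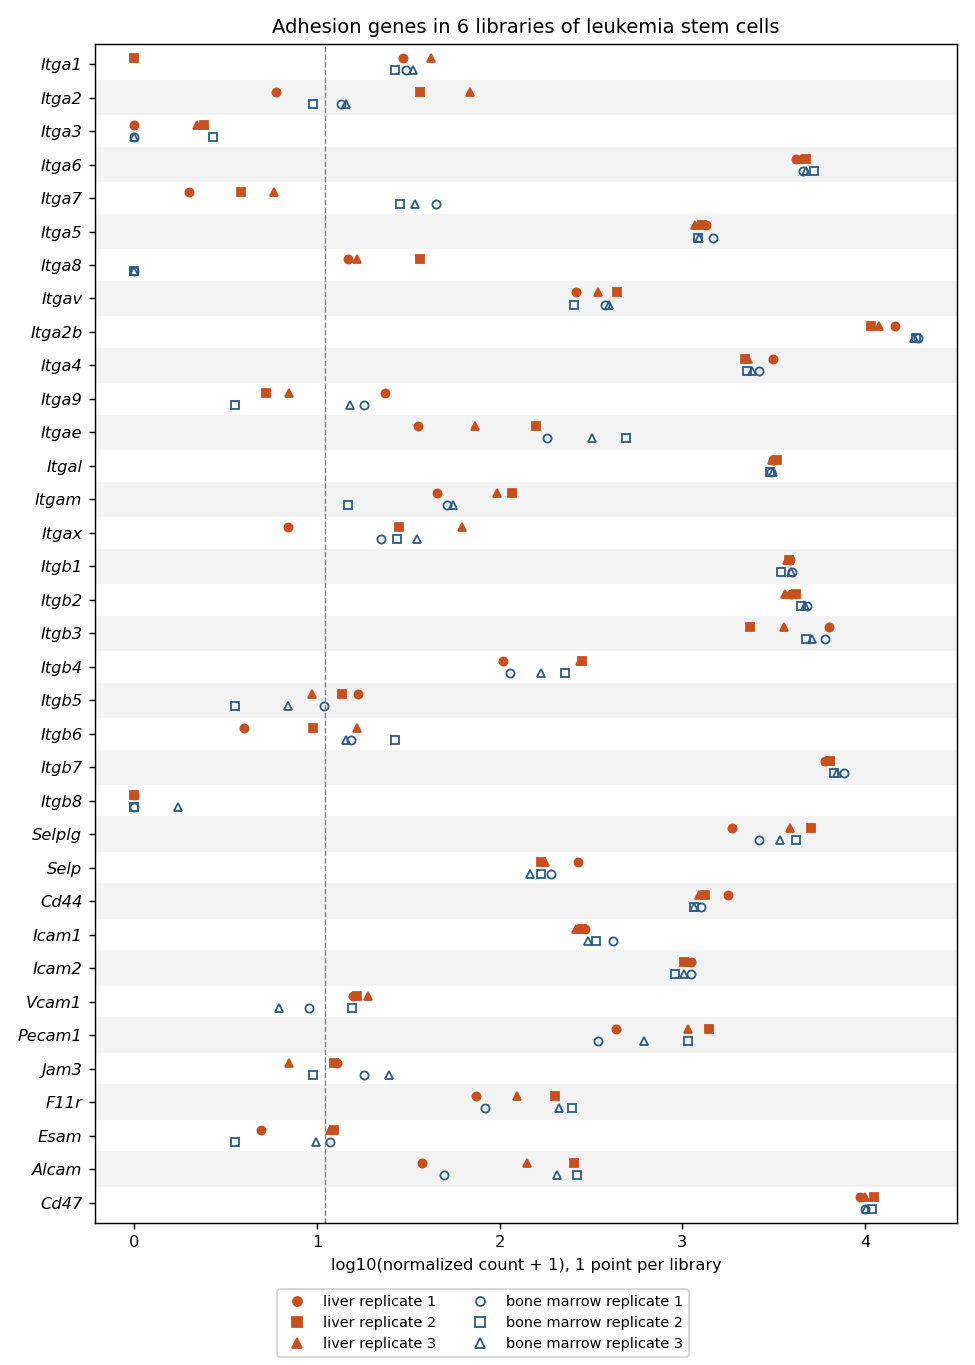
Values of the 35 adhesion genes in every library, as log10(normalized count + 1). Each row is a gene, filled orange points are the 3 liver libraries and open blue points the 3 bone marrow libraries, and the dashed line marks 10 normalized counts. The tissues lie apart in Itga7, Itga8, Itga2b and Itgae and overlap in Itga6, Itga5, Itga4, Itgal and Itgb1.

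Levels of different chains can be compared only per length, here as normalized counts per kilobase of annotated exon. Among beta chains, Itgb7 was highest with 2239 ± 80.3 per kb in liver and 2580 ± 179 in bone marrow (SD, n = 3 each). Itgb2, the common chain of the leukocyte integrins, followed with 1287 ± 90.0 per kb in liver and 1525 ± 53.6 in bone marrow. Itgb1, the chain with the most alpha partners, had 937 ± 19.8 per kb in liver and 929 ± 69.5 in bone marrow. Itgb3 came next with 695 ± 346 per kb in liver and 898 ± 112 in bone marrow, and its library range overlapped that of Itgb1 in each tissue. The ranges of Itgb7, Itgb2 and Itgb1 did not overlap in either tissue. Itgb4, the partner of alpha 6 in epithelia, stood far lower, at 31.5 ± 14.5 per kb in liver and 24.1 ± 8.12 in bone marrow.

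Among alpha chains, Itga2b led with 2277 ± 355 per kb in liver and 3481 ± 102 in bone marrow. Its product, alpha IIb or CD41, pairs with beta 3 to form the fibrinogen receptor of platelets and also marks megakaryocyte progenitors and early blood progenitors. Itga6, a laminin receptor chain, had 495 ± 32.3 per kb in liver and 538 ± 37.3 in bone marrow, and Itgal, the alpha chain of LFA-1, 483 ± 16.0 in liver and 468 ± 8.82 in bone marrow. The ranges of Itga6 and Itgal overlapped in liver and did not in bone marrow. Itga5 of the fibronectin receptor followed with 257 ± 17.5 per kb in liver and 265 ± 28.5 in bone marrow. Itga4, which pairs with beta 1 or beta 7 to bind VCAM-1, fibronectin and MAdCAM-1, had 182 ± 35.8 per kb in liver and 174 ± 12.8 in bone marrow. These 5 chains kept the same order in both tissues. Below them, Itgav had 32.3 ± 8.13 per kb in liver and 31.8 ± 7.24 in bone marrow, and Itgae had 19.2 ± 13.6 in liver and 72.2 ± 34.0 in bone marrow.

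**Figure D2:**
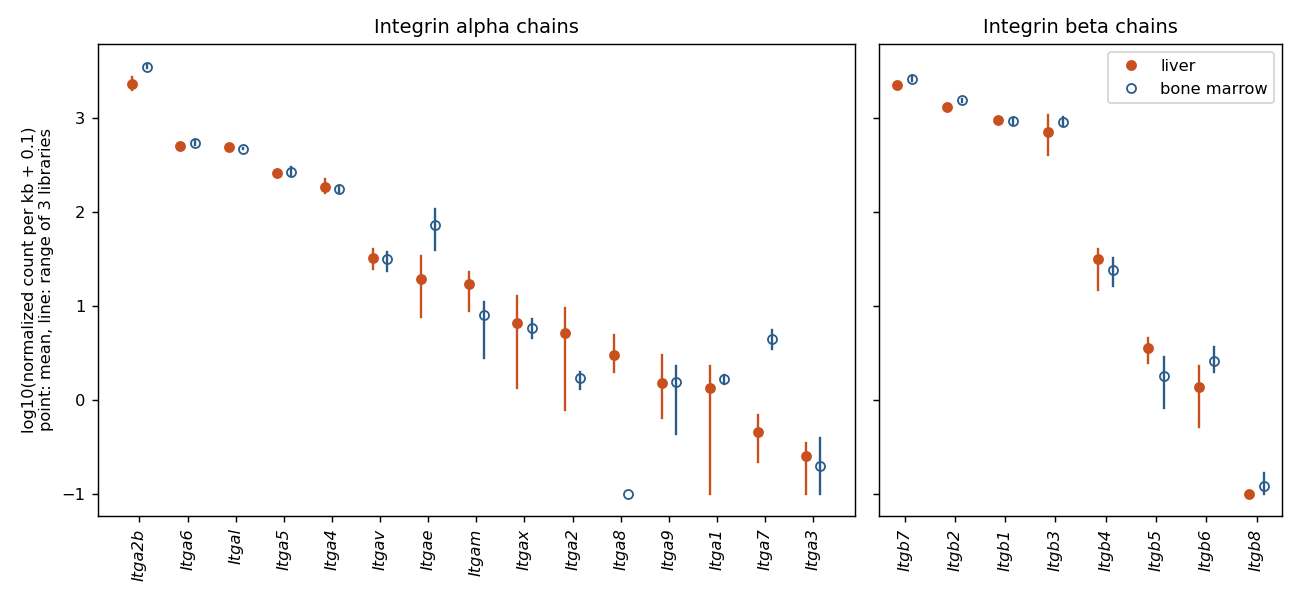
Levels of the 15 integrin alpha chains (left) and 8 beta chains (right) per kilobase of exon, on a scale of log10(normalized count per kb + 0.1). Filled orange is liver and open blue is bone marrow, points are means and lines the range of 3 libraries. Itga2b, Itga6, Itgal, Itga5 and Itga4 head the alpha chains and Itgb7, Itgb2, Itgb1 and Itgb3 the beta chains in both tissues.

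Among the integrin alpha chains, Itga8 rose in liver, and Itga7 and Itga2b fell. That is 3 of 31 tested genes (9.68%), against 1.01% of all 14298 genes tested (limma on log2(normalized count + 1), Benjamini-Hochberg adjusted p under 0.05). By direction it was 1 gene higher, with 0.420% of all genes higher, and 2 genes lower, with 0.594% of all genes lower. The other 28 did not pass. Itga8 and Itga7 reached the minimum mean only through the tissue in which they were high, so they had to differ, and the share of 3 in 31 is given as a description. On reads recovered from the normalized counts, edgeR called 0 of the 31 higher and 2 lower (Itga2b and Itga7), where it called 0.944% of all genes, 0.371% higher and 0.574% lower. DESeq2 called 0 higher and 4 lower (adding Itgae and Itgb2), where it called 4.46% of all genes, 1.97% higher and 2.50% lower. It gave no adjusted p to Itga8, Itga9, Itgb6, Vcam1 and Jam3, so it holds no call on them in either direction. Genes without an adjusted p from DESeq2 are counted as not called in these shares. At an unadjusted p under 0.05 limma called 7 of the 31 (22.6%), against 15.7% of all genes tested. The libraries of the tissues did not overlap in 8 of the 31 genes (25.8%), against 22.3% of all genes tested, a share close to that background. They were 2 genes higher in every liver library (11.4% of all genes) and 6 lower in every one (10.9% of all genes). The median log2 fold change of the 31 genes was -0.04, against -0.01 over all genes tested, with 13 positive and 18 negative values. In these bulk samples fewer cells of a type and less RNA per cell cannot be told apart.

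Itga2b was the most abundant of the 3. It stood at 14576, 10831 and 11846 normalized counts in the 3 liver libraries, against 19537, 18984 and 18430 in the 3 bone marrow libraries. Every liver library lay below every bone marrow library, with liver replicate 1 the nearest. The means were 12418 ± 1937 in liver and 18984 ± 554 in bone marrow, a log2 fold change of -0.62 ± 0.10 (SE, 95% interval -0.86 to -0.39, limma adjusted p = 0.043). Its place in GENCODE M21 is 102453297 to 102470122 of chromosome 11, minus strand (GRCm38), with exons free of overlap with other genes. The call was kept without liver replicate 1 (adjusted p = 0.0011) and lost without liver replicates 2 and 3 (0.060 and 0.24) and without bone marrow replicates 1, 2 and 3 (0.17, 0.15 and 0.23), while the fold change stayed between -0.74 and -0.53. Over all 18 alternative settings the adjusted p ran from 6.2e-06 to 0.87.

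Itgb3, the partner of alpha IIb, did not pass. It stood at 6347, 2350 and 3616 normalized counts in liver, against 6041, 4766 and 5095 in bone marrow, so liver replicate 1 was the highest of all 6 libraries and liver replicate 2 the lowest. The log2 fold change was -0.48 ± 0.32 (SE, 95% interval -1.22 to 0.26, limma adjusted p = 0.53). Without liver replicate 1 it was -0.86 with an adjusted p of 0.0496, which passes the threshold, within a range of 0.037 to 0.92 over the alternatives. The summed level of 13 platelet and megakaryocyte markers had the same order of libraries as Itgb3 in each tissue, with 18556, 4048 and 10375 normalized counts in liver, against 13600, 9066 and 11126 in bone marrow. Most of this sum was Pf4, with a mean of 7324 in liver and 7895 in bone marrow. Not every marker had that order, as Vwf was highest in replicate 2 of bone marrow. Of these markers 11 were tested and 0 passed with limma, edgeR or DESeq2 (0 at an unadjusted p under 0.05), while Gp6 (0 reads in liver and 36 in bone marrow) and Tubb1 (6 in liver and 3 in bone marrow) were too low to test. The part of such cells in the level of Itga2b or Itgb3 was not tested.

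Itga7 encodes the alpha 7 chain, a laminin receptor best known from muscle. It was at 0.988, 2.84 and 4.82 normalized counts in liver, against 44.0, 27.4 and 33.5 in bone marrow, so the tissues lay far apart at a low level. The means were 2.88 ± 1.91 in liver and 34.95 ± 8.40 in bone marrow, a log2 fold change of -3.32 ± 0.53 (SE, 95% interval -4.57 to -2.07, limma adjusted p = 0.043). Behind these values stand 7 liver reads and 126 bone marrow reads. The call was kept without liver replicate 1 (adjusted p = 0.029), and lost without liver replicates 2 and 3 (0.068 and 0.15) and without bone marrow replicates 1, 2 and 3 (0.19, 0.14 and 0.25). Over 17 alternatives the adjusted p ran from 3.6e-04 to 0.87. Itga7 occupies 128933818 to 128958282 of chromosome 10, plus strand, and shares exon bases with Mettl7b on the other strand, which these libraries do not separate. Mettl7b itself was at 0, 2.84 and 4.82 normalized counts in liver, against 8.08, 6.85 and 8.18 in bone marrow.

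Itga8 encodes the alpha 8 chain, which pairs with beta 1, binds RGD-containing matrix proteins such as nephronectin and is known from kidney development. It was at 13.8, 35.5 and 15.7 normalized counts in liver, against 0 in each bone marrow library. All 3 liver libraries held reads, 52 in sum, and no bone marrow library held any. Liver was thus at least 26.0-fold higher, taking 3 reads over the bone marrow group as the most that a count of 0 allows (limma adjusted p = 0.040). The fitted log2 fold change was 4.38 ± 0.65 (SE), which depends on the pseudocount. The gene passed the minimum mean of 10 only through liver, and without liver replicate 2 or 3 it fell below that minimum and was not tested. The call was kept without liver replicate 1 (adjusted p = 0.037) and lost without bone marrow replicates 1, 2 and 3 (0.14, 0.12 and 0.21), within 0.0014 to 0.87 over 13 alternatives. Itga8 occupies 12106632 to 12301922 of chromosome 2, minus strand, and shares exon bases with E030013I19Rik on the other strand, which was not analysed here. Of the markers of cells that reside in liver, 7 of 10 hepatocyte, 3 of 11 macrophage and Kupffer cell and 3 of 12 endothelial markers were at 0 in all 6 libraries. The others included Apoa1, with a mean of 2680 normalized counts in liver and 4194 in bone marrow, Tie1 with 325 in liver and 247 in bone marrow, and Adgre1 with 323 in liver and 429 in bone marrow. The part of such cells in the level of Itga8 was not tested.

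**Figure D3:**
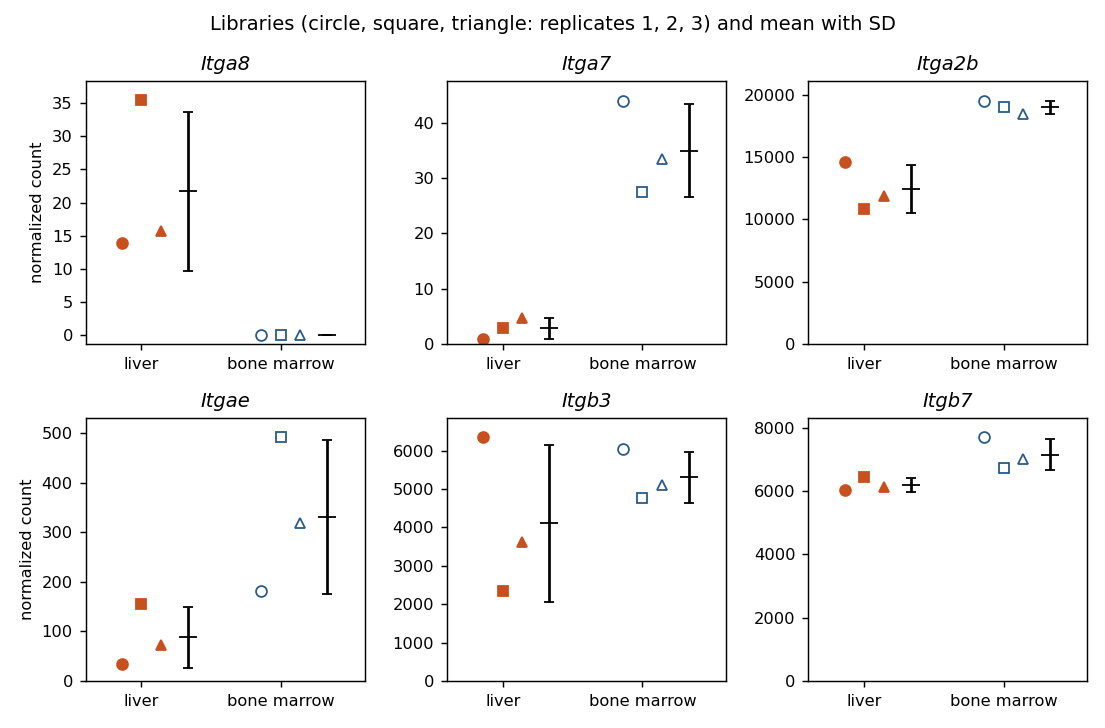
Normalized counts of 6 integrin genes on linear axes. Filled orange symbols are liver and open blue symbols bone marrow, circles, squares and triangles are replicates 1, 2 and 3, and black bars give the mean and SD of 3 libraries. The tissues are apart in Itga8, Itga7, Itga2b, Itgae and Itgb7, of which Itgae and Itgb7 did not pass the test, while liver replicate 1 of Itgb3 lies above all bone marrow libraries.

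The stretches just before the transcription start are shown for Itga2b and Itga8, the 2 genes with a difference that have an entry among the promoter sequences used (RefSeq, GRCm38.p6; 22 of the 35 genes have one). Each line holds 250 bases before the start, 5′ to 3′ on the gene's strand. Capitals mark AGGAAG, a form of the site bound by ETS factors, searched on both strands.
Itga2b, chr11:102469884-102470133, minus strand: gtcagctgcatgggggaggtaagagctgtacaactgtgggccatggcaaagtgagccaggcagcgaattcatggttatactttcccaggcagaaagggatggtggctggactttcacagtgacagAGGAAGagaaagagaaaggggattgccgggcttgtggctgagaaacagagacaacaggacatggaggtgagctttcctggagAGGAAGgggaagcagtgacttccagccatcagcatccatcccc
Itga8, chr2:12301945-12302194, minus strand: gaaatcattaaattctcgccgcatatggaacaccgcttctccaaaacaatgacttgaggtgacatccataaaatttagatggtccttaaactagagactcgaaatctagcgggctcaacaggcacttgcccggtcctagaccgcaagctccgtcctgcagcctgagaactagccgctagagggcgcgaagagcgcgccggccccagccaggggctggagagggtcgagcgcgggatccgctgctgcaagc
The Itga2b window holds the motif 2 times, beginning 125 and 43 bases before the start, and the Itga8 window holds it 0 times. At least 1 copy is present in 29.5% of 32851 promoters cut to the same length, and at least 2 copies in 5.92%. The GATA-type letters AGATAA or TGATAA or AGATAG or TGATAG, on either strand, occur in neither window and in 26.5% of all promoters. GENCODE M21 has a further, processed transcript of Itga2b whose start at 102470122 lies inside the Itga2b window.

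The remaining collagen and laminin receptor chains did not pass. Itga6 had 4169, 4752 and 4485 normalized counts in liver, against 4574, 5227 and 4757 in bone marrow, with overlap and a log2 fold change of -0.12 (95% interval -0.29 to 0.05). Itga1, a collagen receptor chain, had 28.7, 0 and 40.9 in liver, against 29.6, 25.7 and 32.7 in bone marrow. Liver replicate 2 held no read, and the log2 fold change of Itga1 was -1.49 with that library and 0.22 without it. Itga2, another collagen receptor chain, had 4.94, 35.5 and 67.4 in liver, against 12.6, 8.56 and 13.4 in bone marrow, so liver libraries lay on both sides of the bone marrow values (log2 fold change 1.00 ± 0.85 (SE), limma adjusted p = 0.63). Both Itga1 and Itga2 lie on chromosome 13.

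Itga5, Itga4, Itgav and Itga9, which serve in receptors for fibronectin, vitronectin and VCAM-1, did not pass. Itga5 had a mean of 1267 ± 86.4 normalized counts in liver and 1309 ± 141 in bone marrow, with a 95% interval of -0.27 to 0.18 for the log2 fold change. Itga4 had 2539 ± 501 in liver and 2433 ± 179 in bone marrow (interval -0.26 to 0.36). Itgav, the vitronectin receptor chain, had 347 ± 87.3 in liver and 342 ± 77.8 in bone marrow (interval -0.53 to 0.57). Itga9, which also binds VCAM-1, was low, with 22.7, 4.26 and 6.02 in liver, against 17.1, 2.57 and 14.1 in bone marrow. Replicate 1 was its highest library in each tissue.

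Itgae, the alpha chain that pairs with beta 7 and binds E-cadherin, was lower in every liver library without passing the test. It stood at 34.6, 156 and 72.2 normalized counts in liver, against 181, 492 and 319 in bone marrow. In each tissue replicate 1 was lowest and replicate 2 highest. The means were 87.7 ± 62.3 in liver and 331 ± 156 in bone marrow, and the log2 fold change was -2.04 ± 0.56 (SE, 95% interval -3.36 to -0.73, limma adjusted p = 0.15). DESeq2 gave an adjusted p of 0.0038, within 0.0033 to 0.88 over 18 alternatives. Its partner Itgb7 had 6032, 6453 and 6118 in liver, against 7695, 6730 and 7011 in bone marrow, also without overlap. Here the log2 fold change was -0.20 ± 0.062 (SE, limma adjusted p = 0.19).

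The leukocyte integrins bind ICAMs and complement fragments, and the LFA-1 chain Itgal was the most abundant of their alpha chains. Itgal was at 3140, 3288 and 3084 normalized counts in liver, against 3060, 3022 and 3136 in bone marrow, which overlap (log2 fold change 0.04, 95% interval -0.08 to 0.17). Itgb2 was at 3928, 4203 and 3653 in liver, against 4793, 4473 and 4694 in bone marrow, and liver was lower in every library. The log2 fold change of Itgb2 was -0.25 ± 0.065 (SE, limma adjusted p = 0.13), which does not pass. Itgam, the alpha chain of the myeloid integrin Mac-1, was at 44.5, 115 and 95.1 in liver, against 50.3, 13.7 and 54.3 in bone marrow, with overlap. Itgax, the CD11c chain of dendritic cells and macrophages, was at 5.93, 27.0 and 61.4 in liver, against 21.5, 26.5 and 34.2 in bone marrow. Beside Itgam, the summed level of 11 neutrophil markers was 185 to 903 normalized counts in liver and 90.7 to 142 in bone marrow. Cxcr2 passed with limma, higher in liver, but reached the minimum mean of 10 only through liver (mean 77.3, against 9.08 in bone marrow). Of the 7 markers tested, fold changes were positive in 6 and negative in 1 (median log2 fold change 1.75), and only Cxcr2 passed. DESeq2 called 3 of them (4.46% of all genes) and 3 had an unadjusted p under 0.05 (15.7% of all genes). Lcn2 had a mean of 240 in liver and 41.2 in bone marrow, with every liver library higher (limma adjusted p = 0.14). The part of neutrophils in Itgam was not tested.

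Of the other beta chains, Itgb1 did not pass and had a mean of 3822 ± 80.6 normalized counts in liver and 3793 ± 283 in bone marrow (95% interval of the log2 fold change -0.14 to 0.17). Itgb4 was at 104, 283 and 276 in liver, against 113, 227 and 167 in bone marrow. Replicate 1 was its lowest library in each tissue. Itgb6, an epithelial chain, was at 2.96, 8.53 and 15.7 in liver, against 14.4, 25.7 and 13.4 in bone marrow, with overlap. Neither Itgb4 nor Itgb6 passed (limma adjusted p = 0.79 and 0.46).

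**Figure D4:**
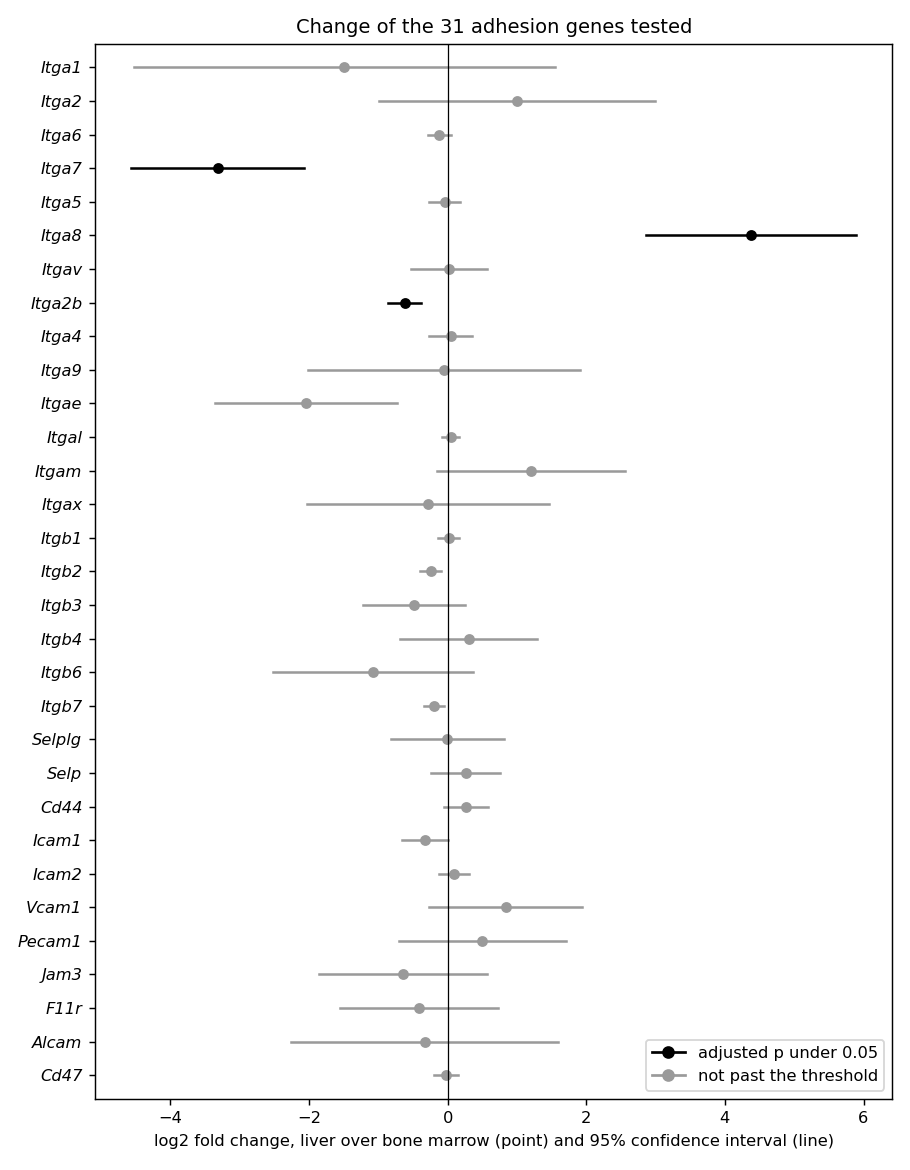
Log2 fold change of liver over bone marrow for the 31 adhesion genes tested, with 95% confidence intervals that are not adjusted for the number of genes. Black marks the 3 genes past an adjusted p of 0.05 (Itga7 and Itga2b below 0, Itga8 above) and gray the other 28. Intervals are narrow for abundant genes such as Itgb1, Itgal and Cd47 and wide for Itga1, Itga2, Itga9 and Alcam.

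No selectin or selectin ligand among the 35 passed. Selplg, which encodes PSGL-1, the main ligand of P-selectin, was at 1861, 5063 and 3888 normalized counts in liver, against 2631, 4162 and 3401 in bone marrow. Replicate 1 was lowest and replicate 2 highest in each tissue, and the log2 fold change was -0.01 ± 0.35 (SE). Selp, the P-selectin of platelets and endothelium, was at 268, 168 and 177 in liver, against 189, 167 and 146 in bone marrow, with overlap. Cd44, the hyaluronan receptor, was at 1779, 1325 and 1239 in liver, against 1259, 1158 and 1157 in bone marrow. Its log2 fold change was 0.26 ± 0.13 (SE, limma adjusted p = 0.40), and liver replicate 1 was the highest library.

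Among immunoglobulin-type molecules 8 of 9 were tested and none passed. Cd47, the signal that restrains phagocytes through SIRP-alpha, was the most abundant, with 9409, 11196 and 9955 normalized counts in liver, against 9969, 10877 and 10134 in bone marrow. Its interval was narrow (log2 fold change -0.02, 95% interval -0.19 to 0.15). Icam2, a ligand of LFA-1, had a mean of 1076 ± 45.1 in liver and 1013 ± 102 in bone marrow, with overlap. Icam1, the inducible ligand of LFA-1 and Mac-1, was at 292, 283 and 260 in liver, against 417, 337 and 305 in bone marrow. Liver was lower in every library, without passing (log2 fold change -0.33 ± 0.14 (SE), limma adjusted p = 0.32). Vcam1, the ligand of integrins alpha 4 beta 1 and alpha 9 beta 1, was low, with 14.8, 15.6 and 18.1 in liver, against 8.08, 14.6 and 5.20 in bone marrow, without overlap but from 41 reads in liver and 33 in bone marrow (adjusted p = 0.45 with limma).

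In the junction and vessel molecules Pecam1, F11r and Alcam, libraries of the same tissue lay further apart than the tissue means. Pecam1, which binds its own kind at endothelial borders and on leukocytes, was at 430, 1393 and 1072 normalized counts in liver, against 343, 1076 and 614 in bone marrow. F11r, which encodes the junctional molecule JAM-A, was at 73.1, 199 and 123 in liver, against 82.6, 247 and 210 in bone marrow. Alcam, a ligand of CD6, was at 36.6, 253 and 141 in liver, against 48.5, 263 and 205 in bone marrow. In each of these 3 genes replicate 1 was lowest and replicate 2 highest in both tissues. Jam3, another junctional molecule, was at 11.9, 11.4 and 6.02 in liver, against 17.1, 8.56 and 23.8 in bone marrow, with overlap.

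This order of libraries was common in the group. In 8 of the 31 tested genes replicate 1 was lowest and replicate 2 highest in both tissues (Itga6, Itgae, Itgb4, Selplg, Pecam1, F11r, Alcam and Cd47), and in 4 the order was the reverse (Itga4, Itga9, Itgb3 and Icam2). Together these are 38.7% of the 31 genes, against 18.02% of all genes tested, where the first order makes up 10.01% and the reverse 8.008%. The replicate number took a median of 46.6% of the variance of log2 values over the 31 genes and the tissue 22.8%, against 37.6% and 21.5% over all genes tested. The replicate number has more levels than the tissue, so its share tends to be the larger even without any effect. The shares of replicate number and tissue can therefore not be ranked against each other. In 19 of the 31 genes the share of the replicate number was the larger, and the same count over all genes was not made. Alcam had 97.0% of its variance between replicate numbers and 2.17% between tissues, whereas Itga8 had 1.68% between replicate numbers and 96.6% between tissues. The difference of replicate 2 minus replicate 1 was correlated between the tissues across the 31 genes (r = 0.48, rho = 0.52). Across all 14298 genes tested r was about the same (0.47) and rho was lower (0.32). Genes are not independent replicates, and these points share the same 4 libraries. The sex-linked transcripts above differ between the same libraries, and their part in these genes was not tested.

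**Figure D5:**
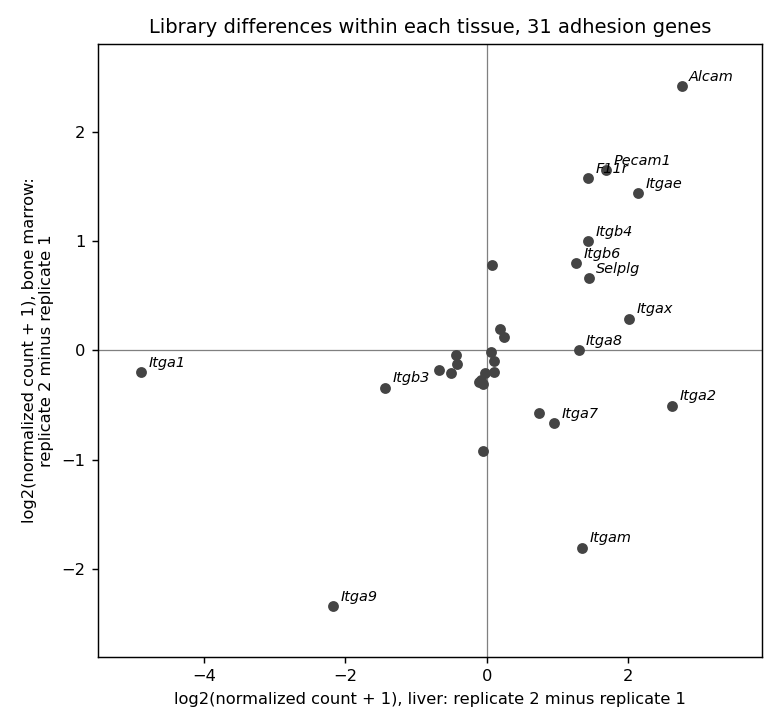
Difference of replicate 2 minus replicate 1 on the log2(normalized count + 1) scale in liver (x axis) and in bone marrow (y axis), 1 point for each of the 31 adhesion genes tested. Alcam, Pecam1, F11r, Itgae, Itgb4 and Selplg lie at the upper right, higher in replicate 2 of both tissues, Itga9 and Itgb3 at the lower left, and Itga1, Itga2 and Itgam differ in direction or size between the tissues.

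Of the genes that work with these receptors, in 7 lists, Rasgrp2 and Hmmr rose. In the list of integrin activation and the adhesion complex, 30 of 38 genes were tested, 1 rose, 0 fell and 29 did not pass (median log2 fold change 0.02). Rasgrp2, the exchange factor that switches on Rap1 ahead of integrins, was at 1384, 1592 and 1694 normalized counts in liver, against 999, 1081 and 990 in bone marrow, with every liver library higher. Its log2 fold change was 0.60 ± 0.090 (SE, limma adjusted p = 0.040). The call was kept without liver replicate 1 (adjusted p = 0.0096) and lost without liver replicates 2 and 3 (0.070 and 0.20) and without bone marrow replicates 1, 2 and 3 (0.16, 0.12 and 0.23), within 6.7e-06 to 0.87 over all alternatives. Next by p-value came the kinase gene Fyn (0.30, adjusted p = 0.089) and the adaptor gene Lcp2 (-0.14, 0.29), which did not pass. Among CD44 partners and hyaluronan genes, 8 of 10 were tested and Hmmr, a hyaluronan receptor that is also a mitotic spindle protein, rose, while 7 did not pass (median 0.06). Hmmr was at 1444, 1421 and 1547 in liver, against 1046, 1040 and 1060 in bone marrow (log2 fold change 0.49, limma adjusted p = 0.027). That call was kept without liver replicates 1 and 2 (0.021 and 0.043) and lost without liver replicate 3 (0.18) and bone marrow replicates 1, 2 and 3 (0.13, 0.12 and 0.18), within 2.6e-06 to 0.87 over all alternatives. The next genes, Msn (-0.14) and Rdx (-0.14), link CD44 to actin and did not pass.

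In the other 5 lists 0 genes passed with limma or edgeR, while DESeq2 called 3 of the adhesion receptors, 1 tetraspanin and 1 matrix gene, against 4.46% of all genes. At an unadjusted p under 0.05 there were 7 of 18 adhesion receptors, 2 of 12 tetraspanins and 1 of 9 matrix genes, against 15.7% of all genes. All 13 genes of selectin ligand synthesis were tested (median 0.08), with B4galt1 (-0.12), Glg1 (0.14) and St3gal6 (0.95) first by p-value. Of 27 other leukocyte and endothelial adhesion receptors 18 were tested (median -0.08). L1cam (0.59, adjusted p = 0.072) and Cdh2, which encodes N-cadherin (-2.69, adjusted p = 0.21), did not pass with limma. Over its 17 alternatives the adjusted p of Cdh2 ran from 0.0058 to 0.88, and L1cam passed without liver replicate 1 (0.67, 0.033), within 0.0013 to 0.87 over all its alternatives. Among 12 tetraspanins and integrin partners, all tested, 11 fold changes were negative (median -0.25), led by Cd81 (-0.33), Cd63 (-0.58) and Cd37 (-0.14). Their limma adjusted p was 0.16, 0.23 and 0.32, and over the alternatives it ran from 0.0051 to 0.88 for Cd81 and from 0.0079 to 0.88 for Cd63. Of 22 matrix and soluble ligands 9 were tested (median -0.16), with Thbs1 (-1.15), Lama5 (-0.36) and Col4a2 (-0.27) first by p-value. Vtn, Fga, Fgb and Fgg, genes that hepatocytes express strongly, had no read in any library. The 3 integrin alpha chains outside the 35, Itga10, Itga11 and Itgad, stayed below the minimum mean, with 7, 3 and 0 reads in liver and 25, 7 and 13 in bone marrow.

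Of the mast cell and basophil markers, Prss34 rose and Tpsb2 and Il1rl1 fell, and 8 of 11 did not pass. The fold changes were negative in 9 of the 11 (median -1.47), 10 had an unadjusted p under 0.05 (15.7% of all genes), and edgeR called 3 and DESeq2 called 8 (0.944% and 4.46% of all genes). Among those that did not pass with limma, Cpa3 had a mean of 927 normalized counts in liver and 3666 in bone marrow and Fcer1a 240 in liver and 939 in bone marrow. The summed level of the 11 was 18922 to 28682 in liver and 27915 to 33886 in bone marrow. Its largest part was Gata2, with a mean of 12022 in liver and 14025 in bone marrow. Of 8 eosinophil markers 3 were tested, and Epx rose, with a mean of 58.2 in liver and 0 in bone marrow, and Siglecf fell, with 1155 in liver and 2409 in bone marrow. Prg2 missed the threshold with 136 in liver and 14.98 in bone marrow (limma adjusted p = 0.053), and DESeq2 called all 3. The sum of the 8, 1278 to 1413 in liver and 2333 to 2565 in bone marrow, is mostly Siglecf. Epx, and Tpsb2 with a mean of 0.40 in liver and 120 in bone marrow, reached the minimum mean only through the tissue in which they were high. Their calls are given as a description. Endothelial markers summed to 320 to 762 in liver and 382 to 736 in bone marrow, macrophage markers to 307 to 627 in liver and 543 to 679 in bone marrow, and lymphocyte markers to 142 to 314 in liver and 251 to 263 in bone marrow, with 0 passing in each of the 3 lists by limma, edgeR, DESeq2 or an unadjusted p under 0.05. Hepatocyte markers summed to 2303 to 3018 in liver and 2667 to 5663 in bone marrow, nearly all of it Apoa1. Cpa3, Fcer1a, Gata2, Lcn2, Pf4, Prg2 and Vwf were chosen for mention after their values were seen. The part of these cells in the adhesion genes was not tested.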

How the data were processed

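Per the submitters' processing notes, the authors used bcl2fastq 2.19.0, Trimmomatic 0.36, STAR 2.6.0c and DESeq2 1.16.1 under R 3.4.1. What they deposited is a table of signal values, reads over a DESeq2 size factor for the library, as its name and its values show. No genome build, annotation or counting tool is named by the labels. Per the labels' protocols, RNA went through a low-input cDNA kit and tagmentation, which does not mark strand. In each library 100% of values were whole multiples of the value of 1 read within 0.01, so reads were recovered, and on them edgeR called 135 genes and DESeq2 638.

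Here log2(normalized count + 1) was fitted across all genes with a mean of at least 10 with limma 3.58.1 (R 4.3.3), using a term for tissue alone and a trended prior variance. Tests were two-sided and p-values were Benjamini-Hochberg adjusted. An adjusted p under 0.05 passed. Fold changes on that scale understate those of low genes. The fit was tested on simulated data in which libraries were drawn independently, with no effect of replicate number. That test does not cover differences shared by same-numbered libraries. The genes, lists, tests and alternatives were chosen with earlier results of these data known. All 35 genes are named, with list genes that passed or had the 3 smallest p-values, and markers that passed, except 1 list gene that is not reported here. Positions and exon lengths are from GENCODE M21 (GRCm38), matched by symbol for all 35. That annotation may differ from the one used for counting, so per-kilobase levels are approximate, and 11 of the 35 genes share exon bases with another gene. Confidence intervals are 95% and unadjusted. Floors of 3 reads cover counting error only. Alternatives used edgeR 4.0.16 and DESeq2 1.42.0 on recovered reads. Other alternatives were TMM factors, other pseudocounts and filters, thinning to equal depth, array weights, a replicate term and leaving out libraries. Figures were drawn with matplotlib 3.10.9.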

Additional observations from a re-analysis of the deposited data

How the results depend on the processing

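With all genes, 60 rose and 85 fell. The counts were 281 and 357 with DESeq2 and 1566 and 1651 with array weights, whose estimation stopped before its tolerance was reached. Without single libraries they ran from 1 to 207 and from 5 to 220, and without both replicate 3 libraries they were 0 and 2. Of the adhesion genes, 1 rose (Itga8) and 2 fell (Itga2b and Itga7). TMM factors and a pseudocount of 0.5 left these counts unchanged. The count of higher adhesion genes was 0 with a pseudocount of 10, a mean of at least 50 (which leaves Itga8 untested), edgeR, DESeq2 (which gave Itga8 no adjusted p) and thinning to equal depth, and 3 with array weights (Itga2, Itga8 and Vcam1). The count of lower adhesion genes was 1 without a filter, with a mean of at least 50 (Itga7 untested) and after thinning, each time Itga2b, 4 with DESeq2 (adding Itgae and Itgb2) and 7 with array weights. Without single libraries the counts ran from 0 to 1 higher and from 0 to 3 lower, and without both replicate 3 libraries both were 0. The sign held in every alternative for 21 of the 31 genes, and 21 of the 28 that did not pass never passed.

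None of the 10 genes whose sign changed had passed. With array weights the log2 fold changes were 0.052 for Itga1, -0.055 for Itgav, -0.057 for Itga4, 0.81 for Itgax, -0.030 for Itgb1 and 0.18 for Selplg. With edgeR they were 0.020 for Itga9, 0.18 for Itgax and 0.080 for Selplg, and with DESeq2 0.19 for Itgax and 0.085 for Selplg. Itga9 had 0.48 without both replicate 3 libraries, with the replicate block or without it. Without single libraries the values ran from -2.47 to 0.22 for Itga1, -0.092 to 0.044 for Itga5, -0.18 to 0.21 for Itgav, -0.11 to 0.14 for Itga4, -0.79 to 0.38 for Itga9, -1.01 to 0.58 for Itgax, -0.049 to 0.053 for Itgb1, -0.31 to 0.41 for Selplg, -1.08 to 0.45 for Alcam and -0.093 to 0.033 for Cd47. The causes were not tested.

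Same-numbered libraries deviated together with correlations of 0.44, 0.40 and 0.06 for numbers 1, 2 and 3. Liver replicate 1 against bone marrow replicate 2 gave -0.44, and liver replicate 2 against bone marrow replicate 1 gave -0.38. Numbers 1 and 2 thus paired by that check. Number 3 lay between numbers 1 and 2 in sex-linked RNA of each tissue. Where a library lies near its tissue mean its deviations are small, so the low value for number 3 cannot tell whether it is paired. The check therefore does not settle whether all libraries are paired. Each library correlated best with its own number except liver replicate 3 (0.15 with bone marrow replicate 2). Xist was matched by number (6229, 1.42 and 2425 in liver, 4860, 4.28 and 2486 in bone marrow), which is a hint from the data and not from the design. With the replicate number as a term (replicate block), 202 genes rose and 323 fell (1.41% and 2.26% of those tested), and of the adhesion genes Itga8 rose and Itga2b, Itga7 and Itgae fell (1 and 3; adjusted p = 0.0038 for Itgae). Under that block Cd81 (0.018), Cd63 (0.044) and Cdh2 (0.037) also fell, 2 other adhesion receptors rose, and the neutrophil markers Cxcr2 and Lcn2 rose, and of the mast cell and basophil markers 2 rose and 6 fell. With that block and without both replicate 3 libraries, an alternative chosen after seeing the data, 4 rose and 11 fell, and 0 adhesion genes passed either way.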
